A study of Mus musculus with 11 samples.

Results

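The genes described here encode subunits of the 5 oxidative phosphorylation complexes and were followed across fasted, ketogenic and fed mice in mRNA pulled down from hippocampal astrocytes. Members were taken by symbol: Nduf followed by a, b, c, s or v, the 4 Sdh genes, Uqcr, Cox4 to Cox8 and Atp5, with pseudogene symbols ending in -ps left out. Of the 20259 genes that an array probe set measured alone, 85 met this rule. By symbol, 36 were of complex I, 4 of complex II, 8 of complex III, 15 of complex IV and 14 of complex V. The other 8 were Ndufaf genes, whose products help to assemble complex I but are not subunits of it. A further 8 matching symbols (Atp5h, Atp5j, Atp5o, Cox6c, Cox7a2l, Ndufa10, Ndufa11 and Ndufs5) were measured only by probe sets shared with other genes. They were not analysed here. Ndufa4 was counted under complex I by its symbol, although the protein is now assigned to complex IV, and 2 members, Ndufa11b and Ndufs6b, are annotated as pseudogenes in RefSeq.

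In oxidative phosphorylation, complexes I and II pass electrons from NADH and succinate to ubiquinone, complex III passes them to cytochrome c, and complex IV passes them to oxygen. The proton gradient built on the way drives complex V, the ATP synthase. Nuclear genes encode most of the subunits and mitochondrial DNA encodes a small set, so the 85 genes cover the nuclear share. Astrocytes hold all of these complexes and are also able to oxidise fatty acids, a fuel of the fasted and of the ketogenic state.

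All mice carried Aldh1l1-Cre, active in astrocytes, with a Ribo-Tag allele that tags a ribosomal protein where Cre has acted, and ribosomes with their mRNA were immunoprecipitated from the hippocampus. Arrays were from 3 fasted mice, 4 mice on a high-fat, low-carbohydrate ketogenic diet for 4 weeks and 4 fed mice on chow for 4 weeks. The fast is stated as 18 h in the protocol and 24 h in the sample labels. The labels number the samples of a diet as separate biological samples and give no age, sex or litter.

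Values are array levels on a log2 scale, so that a difference of 0.59 is 1.5-fold. On all 11 arrays together, 3 members (Atp5l, Cox7b2 and Cox8c) averaged within the range of silent genes, taken as the 95th percentile of 862 odorant receptor genes, 3.96, and the other 82 lay above it. The level of each array is that of the whole pull-down, in which fewer tagged cells and less mRNA per cell cannot be told apart. Fed array 2 and fasted array 2 stood apart in precision, with array weights of 0.251 and 0.458 against 1.03 to 1.43 for the other 9, and 29 of the 65 values of named genes with a size of at least 0.1 changed sign or moved over 1.5 times without them. Where such a value is printed, the value without these arrays is given beside it. The defining astrocyte genes were present (17 markers, mean level 7.98 to 8.16 on the fasted, 7.54 to 7.80 on the ketogenic and 8.06 to 8.18 on the fed arrays), and 14 neuron markers were as well (8.43 to 8.60, 8.53 to 8.57 and 8.39 to 8.43 in the same order). Between diets, the median over the astrocyte markers differed by -0.07 on the log2 scale in fasted against fed mice, by -0.42 in ketogenic against fed mice, where 7 of the 17 passed the test as lower (0.765% of all genes did), and by 0.41 in fasted against ketogenic mice. All 17 were below 0 in ketogenic against fed mice also when any 1 array was left out, but 0 of them passed without ketogenic array 1, 2 or 4 and 0 passed with the replicate number as a block, while 4 passed without fed array 3. Medians in the same 3 comparisons were 0.11, 0.12 and -0.04 for neuron markers, -0.37, -0.32 and -0.11 for 11 oligodendrocyte markers, -0.02, 0.15 and -0.15 for 11 microglia markers and 0.07, -0.28 and 0.30 for 12 endothelial and mural markers. Without fed array 2 and fasted array 2 the medians were 0.004, -0.484 and 0.405 for astrocyte markers and 0.034, 0.144 and -0.114 for neuron markers. For oligodendrocyte markers they were -0.303, -0.295 and 0.010, and for microglia markers -0.148, 0.210 and -0.336. For endothelial and mural markers they were 0.005, -0.155 and 0.159. The part of these markers in the results on oxidative phosphorylation was not tested.

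Some members share letters in their promoters. NRF1 and GABPA are transcription factors known for driving nuclear genes of the respiratory chain, and their recognition letters were searched on both strands of the RefSeq window from 250 bases before to 50 bases after the gene start (GRCm38.p6), which was found for 68 of the 85 members. The letters CATGCGC of the NRF1 site (GCGCATG on the other strand) stood in 14 of the 68 (20.6%), against 4.41% of all genes and 5.4% of protein-coding genes with a window. The letters CCGGAAG of GABPA (CTTCCGG on the other strand) stood in 17 members (25%), against 9.93% of all genes and 12.95% of protein-coding genes. The windows below show a member of each complex whose NRF1 letters (in capitals) begin before the gene start, with 15 bases on either side. In Uqcr11 they run across the start, and the only other complex III member with a match, Uqcrc1, has it after the start. The windows are shown because the same letters recur around the starts of genes of all 5 complexes, and in Cox6a1 and Atp5g2 they stand on both strands at once and overlap.
Ndufa6, complex I (chr15:82354352-82354388, minus strand, match 82 bases before the start): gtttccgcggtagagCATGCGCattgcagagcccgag
Sdhb, complex II (chr4:140961203-140961239, plus strand, match 53 bases before the start): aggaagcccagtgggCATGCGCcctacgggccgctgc
Uqcr11, complex III (chr10:80406803-80406839, minus strand, match from 3 bases before the start into the gene): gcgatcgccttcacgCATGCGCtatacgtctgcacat
Cox6a1, complex IV (chr5:115349096-115349135, minus strand, match 162 bases before the start): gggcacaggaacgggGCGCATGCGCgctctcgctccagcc
Atp5g2, complex V (chr15:102671065-102671104, minus strand, match 42 bases before the start): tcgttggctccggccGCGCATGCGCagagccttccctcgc

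Cox6a1, the common isoform of a regulatory subunit of complex IV, also held a GABPA match. Its promoter is shown up to the gene start, with both matches in capitals, as an example of both kinds of letters in 1 window.
Cox6a1 (chr5:115348959-115349208, minus strand): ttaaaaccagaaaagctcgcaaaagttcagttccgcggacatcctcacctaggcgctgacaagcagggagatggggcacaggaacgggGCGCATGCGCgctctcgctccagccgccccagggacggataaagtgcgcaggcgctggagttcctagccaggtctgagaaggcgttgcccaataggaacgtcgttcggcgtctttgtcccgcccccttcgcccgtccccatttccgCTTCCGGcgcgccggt

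The GABPA letters also lay close to the start of several members whose values are given below. These windows, with the match in capitals, are those of a subunit each of complexes I, II, III and IV. In Cox8a the match shown runs across the start into the gene. Further matches, not shown, begin 1 base after the start in Ndufs3 and 32 bases after it in Cox8a.
Ndufs3 (chr2:90904727-90904763, minus strand, match 27 bases before the start): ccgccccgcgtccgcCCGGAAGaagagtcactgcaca
Sdhd (chr9:50603874-50603910, minus strand, match 46 bases before the start): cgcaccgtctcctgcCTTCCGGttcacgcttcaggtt
Uqcrh (chr4:116075059-116075095, minus strand, match 10 bases before the start): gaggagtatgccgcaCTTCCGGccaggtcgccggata
Cox8a (chr19:7217600-7217636, minus strand, match 5 bases before the start): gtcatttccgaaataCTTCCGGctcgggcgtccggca

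The 14 members with the NRF1 letters had medians, over their log2 fold changes, of -0.06 in fasted against fed mice (the 54 without them -0.04), of 0.06 in ketogenic against fed mice (0.03 without them) and of -0.13 in fasted against ketogenic mice (-0.09 without them). Among the 17 with the GABPA letters the medians were -0.07, 0.06 and -0.12 in the same order. These are descriptions of letters in a window and of these arrays.

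No member passed the threshold (adjusted p under 0.05 over all 20259 genes, limma) in any of the 3 comparisons. In fasted against fed mice the background of genes called was 0%, in ketogenic against fed mice 0.884% and in fasted against ketogenic mice 0.281%. These backgrounds depended on single arrays. The 179 genes called in ketogenic against fed mice became 2, 1 and 2 without ketogenic array 1, 2 or 4, and 95, 48 and 49 without fed array 1, 3 or 4. The 57 genes called in fasted against ketogenic mice became 9, 27 and 12 without fasted array 1, 2 or 3, and 11, 8 and 11 without ketogenic array 1, 2 or 4. At an unadjusted p under 0.05 there were 2 members in fasted against fed mice, 2 of 85 against 7.07% of all genes. They were 1 higher (2.26% of all genes) and 1 lower (4.82%). The ketogenic against fed comparison gave 6 against 13.9% of all genes, with 5 higher (7.39%) and 1 lower (6.53%). The fasted against ketogenic comparison gave 10 against 10.6% of all genes, with 3 higher (4.19%) and 7 lower (6.43%). A p that misses the threshold does not show that levels were the same, so the intervals were read as well. The 95% interval of the fold change lay within 1.5-fold in either direction for 76 of 85 members in fasted against fed mice (89.4%, against 81.6% of all genes), for 76 in ketogenic against fed mice (89.4%, against 80.8%) and for 71 in fasted against ketogenic mice (83.5%, against 79%).

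The members' median log2 fold change was -0.04 in fasted against fed mice (all genes -0.02), 0.04 in ketogenic against fed mice (all genes 0.01) and -0.09 in fasted against ketogenic mice (all genes -0.04). Values above 0 were found for 33 of the 85 (38.8%, against 44.0% of all genes), for 57 (67.1%, against 53.5%) and for 21 (24.7%, against 39.3%) in the same order. The 13218 genes above the range of silent genes had medians of -0.01, 0.04 and -0.05, and the 82 such members -0.04, 0.04 and -0.09. Of these genes 47.9%, 59.1% and 37.3% were above 0, and of these members 37.8%, 67.1% and 23.2%. The lean of the last comparison was smaller once fed array 2 and fasted array 2 were left out, with a median of -0.03 and 35 of 85 values above 0 (41.2%, against 43.7% of all genes). Comparisons against the fed group share the same 4 fed arrays, and the comparison of fasted with ketogenic mice shares arrays with both. Spread between arrays of a diet was small, with a median SD of 0.14 over the members, against 0.16 over all genes, and it ran from 0.04 for Uqcrc2 to 0.88 for Cox8b.

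**Figure D1:**
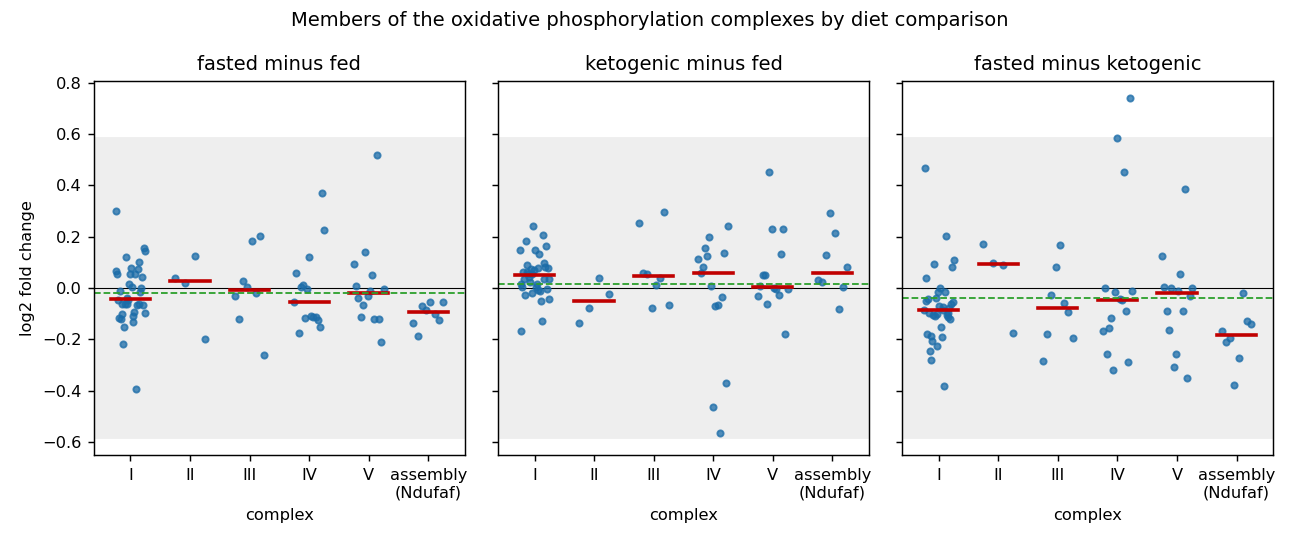
Log2 fold change of each of the 85 members (points) by complex in the 3 comparisons, with the median of each complex (red bars), the median of all genes (green dashed line) and the range of 1.5-fold either way (grey band). All medians lie close to 0, between -0.18 for the Ndufaf assembly factors in fasted against ketogenic mice and 0.09 for complex II in the same comparison, and the points beyond the grey band include Cox8b at 0.74.

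Complex I, the entry point of electrons from NADH, had a median log2 fold change of -0.04 in fasted against fed mice, 0.05 in ketogenic against fed mice and -0.09 in fasted against ketogenic mice over its 36 members. The mean deviation of these members from their own average over 11 arrays was 0.04, -0.15 and 0.01 on the fasted arrays, 0.03, 0.08, 0.03 and 0.02 on the ketogenic arrays, and -0.01, -0.05, 0.00 and 0.01 on the fed arrays. Fasted array 2 was the lowest of the 11 and the 4 ketogenic arrays lay above the 4 fed arrays, while the fasted arrays spanned both groups. Without fed array 2 and fasted array 2 the medians were 0.01, 0.04 and -0.04. The 64 cytosolic ribosomal protein genes also read lowest on fasted array 2 (mean deviation -0.34) and on fed array 2 (-0.19), and the part of this in the complex I values was not tested.

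**Figure D2:**
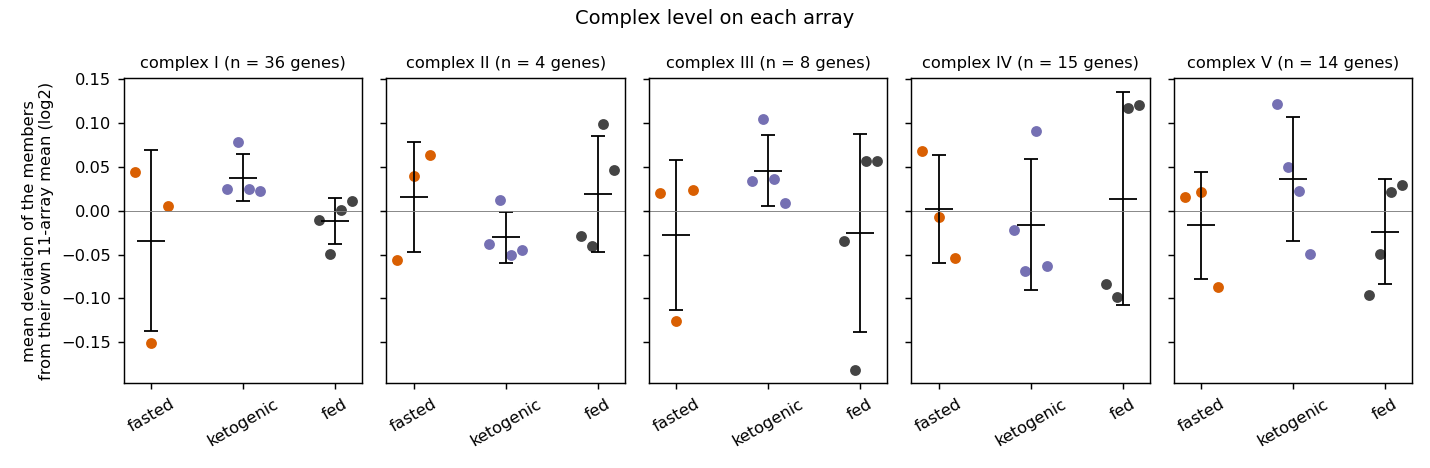
Mean deviation of the members of each complex from their own average over the 11 arrays (log2), for each fasted, ketogenic and fed array (points), with the mean and SD of each diet (black bars). Fasted array 2 at -0.15 for complex I and fed array 2 at -0.18 for complex III are the lowest points, and every diet's range overlaps another's in every complex.

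The 6 measured core subunits of complex I, most of which carry the flavin or iron-sulfur clusters, had medians of 0.06, 0.04 and -0.06 in the 3 comparisons. The 30 accessory subunits had -0.05, 0.05 and -0.09. Ndufv1, which binds NADH, read 7.43, 7.30 and 7.34 on the fasted arrays, 7.22, 7.41, 7.24 and 7.24 on the ketogenic arrays and 7.35, 7.16, 7.12 and 7.16 on the fed arrays. Its fold change was 0.16 in fasted against fed mice (SE 0.083, 95% interval -0.02 to 0.34, adjusted p = 0.731 from limma), and fed array 1 lay among the fasted arrays. Ndufs1, the largest iron-sulfur subunit, read 5.94, 6.13 and 6.07 on the fasted arrays and 5.86, 5.84, 5.84 and 5.84 on the ketogenic arrays, with 5.93, 6.19, 5.92 and 5.85 on the fed arrays. All 3 fasted arrays lay above all 4 ketogenic arrays (difference 0.20, SE 0.089, adjusted p = 0.449), and the fed arrays spread over the range of both. Ndufs3, another core subunit, read 8.65, 8.49, 8.29 and 8.48 on the ketogenic arrays against 8.23, 8.14, 8.32 and 8.39 on the fed arrays, a difference of 0.21 (SE 0.092, adjusted p = 0.350) with ranges that overlapped. A second probe set of Ndufs3 gave -0.04 in the same comparison.

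Among the accessory subunits, Ndufb2 and Ndufc1, both of the membrane arm, had the lowest p-values. Ndufb2 read 6.64, 6.82, 6.92 and 6.84 on the ketogenic arrays and 6.55, 6.55, 6.52 and 6.63 on the fed arrays, with 6.56, 6.65 and 6.54 on the fasted arrays. Every ketogenic array lay above every fed array, 1 of the 4 members without overlap in that comparison (4 of 85, against 10.7% of all genes). Of these, 3 were higher (5.94% of all genes) and 1 was lower (4.74%). The difference was 0.24 (SE 0.073, 95% interval 0.08 to 0.40, adjusted p = 0.170), the lowest adjusted p of any member. A second probe set of Ndufb2, whose mean of 3.51 on the ketogenic and 3.93 on the fed arrays lay in the range of silent genes, gave -0.42. Ndufc1 read 5.59, 5.29 and 5.67 on the fasted arrays, 5.89, 6.13, 5.70 and 5.87 on the ketogenic arrays and 5.58, 6.17, 5.99 and 5.88 on the fed arrays. The fasted arrays were below every ketogenic array and below 3 of the 4 fed arrays. Its fold change was -0.39 in fasted against fed mice (SE 0.150, adjusted p = 0.685) and -0.38 in fasted against ketogenic mice (SE 0.150, adjusted p = 0.391), and without fed array 2 and fasted array 2 it was -0.19 and -0.27.

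Ndufa4 had some of the steadiest values of the set, with 6.90, 6.88 and 6.92 on the fasted arrays, 6.94, 6.97, 6.97 and 7.10 on the ketogenic arrays and 7.02, 6.99, 7.02 and 7.06 on the fed arrays. It was the only member that lay lower without overlap in fasted against fed mice, against 4.27% of all genes. Uqcrc2 and Ndufv3 lay higher without overlap, 2 members against 2.16% of all genes, which makes 3 of 85 against 6.43%. The Ndufa4 difference was -0.12 (SE 0.066, 95% interval -0.27 to 0.02, adjusted p = 0.739). The Ndufa4 paralog Ndufa4l2, known as a hypoxia-responsive gene, read near the range of silent genes at 4.01, 3.94 and 3.72 on the fasted arrays, 4.44, 4.15, 3.84 and 4.11 on the ketogenic arrays and 4.40, 3.64, 3.89 and 3.88 on the fed arrays, with overlap throughout.

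Of the 8 Ndufaf assembly factors, 8 had values below 0 in fasted against fed mice (median -0.09, from -0.19 to -0.06) and 8 in fasted against ketogenic mice (median -0.18, from -0.38 to -0.02), and 7 were above 0 in ketogenic against fed mice (median 0.06). Of all genes, 44.0%, 39.3% and 53.5% were above 0 in these comparisons. None of the 8 passed, and their lowest adjusted p was 0.414. Their mean deviation was -0.06, -0.30 and 0.05 on the fasted arrays, 0.03, 0.10, 0.09 and 0.12 on the ketogenic arrays and -0.05, -0.14, 0.07 and 0.10 on the fed arrays, so that fasted array 2 was far below the other 2 fasted arrays. Without it and fed array 2 the medians were -0.04 in fasted against fed mice and -0.11 in fasted against ketogenic mice, each with 7 of 8 below 0. Of all genes, 47.3% and 43.7% were above 0 without those arrays. Ndufaf5 read 5.0, 4.67 and 4.95 on the fasted arrays and 5.16, 5.17, 5.11 and 5.14 on the ketogenic arrays, against 5.10, 4.66, 4.87 and 5.10 on the fed arrays. The ketogenic arrays lay just above all 7 others, and the differences were -0.27 in fasted against ketogenic mice (adjusted p = 0.447) and 0.21 in ketogenic against fed mice (adjusted p = 0.414), or -0.17 and 0.12 without fed array 2 and fasted array 2.

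Complex II joins the tricarboxylic acid cycle to the respiratory chain and had medians of 0.03, -0.05 and 0.09 in the 3 comparisons over its 4 subunits. Without fed array 2 and fasted array 2 the medians were -0.041, -0.093 and 0.065. Sdha, the flavoprotein that oxidises succinate, read 6.48, 6.82 and 6.54 on the fasted arrays, 6.46, 6.46, 6.45 and 6.40 on the ketogenic arrays and 6.52, 6.77, 6.54 and 6.48 on the fed arrays. The 4 ketogenic arrays were below all others. The difference was -0.13 in ketogenic against fed mice (SE 0.091, 95% interval -0.33 to 0.07, adjusted p = 0.547) and 0.17 in fasted against ketogenic mice (SE 0.098, adjusted p = 0.571). Without fasted array 2 and fed array 2 these were -0.07 and 0.07. Sdhb, the iron-sulfur subunit, differed by 0.02, -0.08 and 0.10 (all adjusted p from 0.747 to 0.980), or by -0.08, -0.14 and 0.06 without those arrays. The membrane anchors Sdhc and Sdhd, which form the ubiquinone site, differed by 0.13 and -0.20 in fasted against fed mice, and Sdhd by -0.12 without those arrays. Sdhc read 6.30 on fed array 2 against 6.88 to 6.99 on the other fed arrays, and without fed array 2 and fasted array 2 its fasted against fed difference was 0.07.

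Complex III had medians of -0.01, 0.05 and -0.08, or of -0.02, 0.02 and -0.01 without fed array 2 and fasted array 2. Uqcrc2, a core protein that faces the matrix, read 8.67, 8.76 and 8.78 on the fasted arrays, 8.52, 8.63, 8.59 and 8.54 on the ketogenic arrays and 8.56, 8.58, 8.57 and 8.52 on the fed arrays. Every fasted array was above every other array. The difference was 0.18 in fasted against fed mice (SE 0.065, 95% interval 0.04 to 0.33, adjusted p = 0.657) and 0.17 in fasted against ketogenic mice (SE 0.065, adjusted p = 0.379), and both were similar without fed array 2 and fasted array 2 (0.18 and 0.16). Its partner Uqcrc1 did not share this order, with 6.72, 6.80 and 6.61 on the fasted arrays, 6.58, 6.66, 6.56 and 6.69 on the ketogenic arrays and 6.68, 6.76, 6.67 and 6.69 on the fed arrays.

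Uqcrfs1, the Rieske iron-sulfur protein, differed by -0.02, 0.04 and -0.06 on the probe set used, but by -0.45, 0.43 and -0.88 on a second one, which leaves its level between diets uncertain. Uqcrh, the hinge protein at the cytochrome c site, read 8.09, 8.22, 8.02 and 7.88 on the ketogenic arrays and 7.94, 7.11, 8.01 and 7.96 on the fed arrays. Fed array 2 was far below the rest, and the difference of 0.29 (SE 0.186, adjusted p = 0.518) was 0.08 without fed array 2 and fasted array 2. Uqcr10, a small subunit, read 7.15, 6.95 and 7.05 on the fasted arrays and 7.30, 7.38, 7.35 and 7.30 on the ketogenic arrays, with 7.11, 6.57, 7.32 and 7.31 on the fed arrays. The fasted arrays were below the ketogenic arrays without overlap (-0.28, SE 0.157, adjusted p = 0.564), and fed array 2 was again the lowest. Uqcr11 and Uqcrq, also small subunits, differed by -0.12 and -0.26 in fasted against fed mice, with adjusted p of 0.794 and 0.771.

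**Figure D3:**
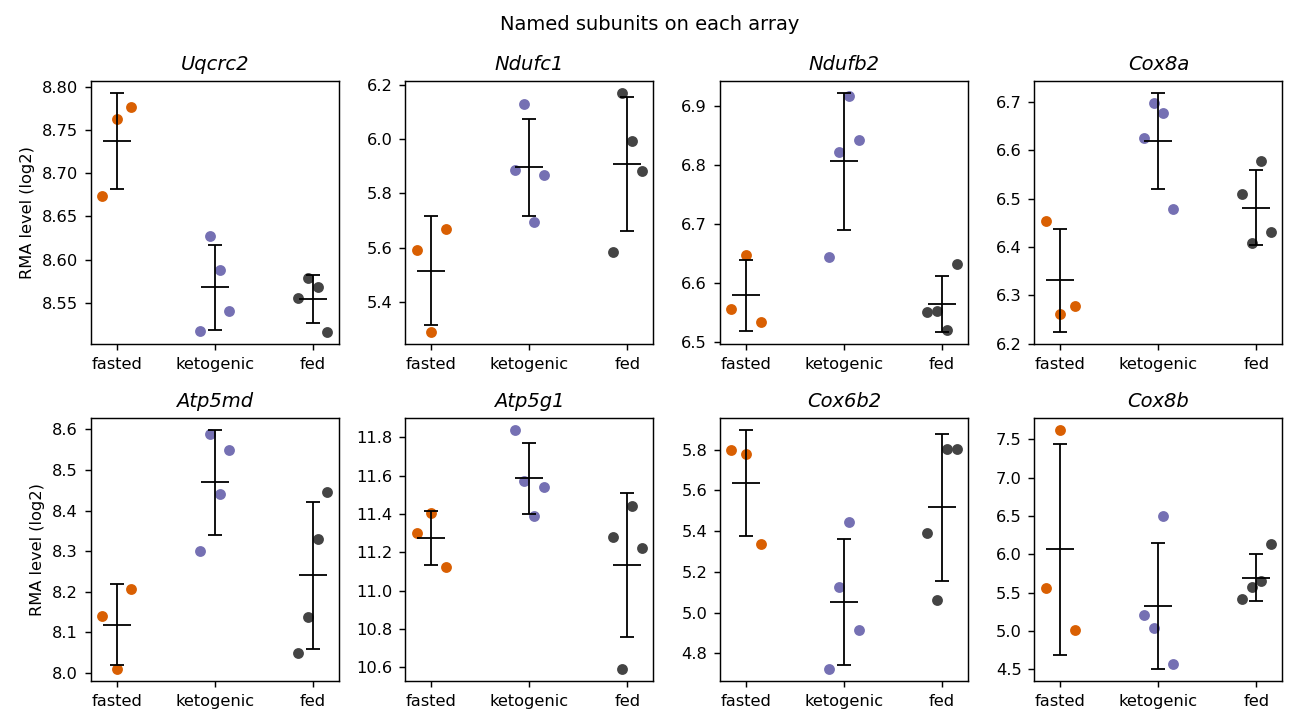
Array level (log2) of 8 subunits on each fasted, ketogenic and fed array (points), with the mean and SD of each diet (black bars) and a separate vertical axis for each gene. For Uqcrc2 the 3 fasted arrays (8.67 to 8.78) lie above all others, for Ndufb2 the ketogenic arrays (6.64 to 6.92) lie above the fed ones, and for Cox8b fasted array 2 at 7.63 is the highest point.

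Complex IV had medians of -0.05, 0.06 and -0.05 and is the complex with tissue-specific isoforms. Cox8a, the common form of the smallest subunit, read 6.45, 6.26 and 6.28 on the fasted arrays, 6.62, 6.70, 6.68 and 6.48 on the ketogenic arrays and 6.51, 6.41, 6.58 and 6.43 on the fed arrays. The fasted arrays were below the ketogenic arrays without overlap, as were 10 of the 85 members (9.16% of all genes), while 3 were above (4.78%), which makes 13 of 85 against 13.9% of all genes. The difference for Cox8a was -0.29 (SE 0.084, 95% interval -0.47 to -0.10, adjusted p = 0.246), the lowest adjusted p of the members in fasted against ketogenic mice. The fed arrays lay between, at -0.15 for fasted against fed (adjusted p = 0.745) and 0.14 for ketogenic against fed (adjusted p = 0.464).

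Of its paralogs, Cox8b, the form of heart and skeletal muscle, had the widest spread of all members, with 5.56, 7.63 and 5.01 on the fasted arrays, 5.20, 5.04, 6.49 and 4.57 on the ketogenic arrays and 5.41, 5.58, 5.66 and 6.14 on the fed arrays. Single arrays of the fasted and ketogenic groups were far above the others, and the fasted against ketogenic difference of 0.74 (SE 0.572, adjusted p = 0.691) was -0.04 without fasted array 2 and fed array 2. Cox8c, known from testis, lay in the range of silent genes on every array, between 3.19 and 3.76.

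Cox4i1, the common form of the regulatory subunit, read 6.05, 6.16 and 6.06 on the fasted arrays and 6.27, 6.26, 6.18 and 6.32 on the ketogenic arrays, against 6.02, 6.02, 6.30 and 6.24 on the fed arrays. Fasted and ketogenic arrays did not overlap (-0.17, SE 0.088, adjusted p = 0.539), and the fed arrays ran from just under the fasted range into the ketogenic range. Cox4i2, its oxygen-regulated isoform, differed by 0.06, 0.06 and 0.00, with a 95% interval of -0.34 to 0.46 in fasted against fed mice. Cox5a, which pairs with Cox4 subunits, differed by -0.18, 0.08 and -0.26, with adjusted p of 0.590 or more, or by -0.11, 0.13 and -0.24 without fed array 2 and fasted array 2. A second probe set of Cox5a gave -0.09, -0.02 and -0.07 on all arrays.

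Cox6b2, known as the testis form of a subunit at the cytochrome c side, read 5.80, 5.78 and 5.34 on the fasted arrays, 4.72, 5.12, 5.44 and 4.92 on the ketogenic arrays and 5.39, 5.06, 5.80 and 5.80 on the fed arrays. The ketogenic arrays were the lowest on average, with 1 ketogenic array inside the fasted range and 2 inside the fed range. Differences were -0.46 in ketogenic against fed mice (SE 0.199, 95% interval -0.90 to -0.03, adjusted p = 0.330) and 0.59 in fasted against ketogenic mice (SE 0.215, adjusted p = 0.360). Its common counterpart Cox6b1 differed by 0.00, 0.01 and -0.01, or by 0.10, 0.02 and 0.09 without fed array 2 and fasted array 2.

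The common Cox6a1, whose promoter is shown above, differed by 0.01, 0.13 and -0.12 (adjusted p of 0.588 or more), or by 0.03, 0.08 and -0.05 without fed array 2 and fasted array 2. Cox6a2, the heart and muscle form, read 6.57, 6.74 and 6.76 on the fasted arrays and 7.03, 6.92, 7.02 and 7.06 on the ketogenic arrays, with 6.74, 6.16, 6.86 and 7.47 on the fed arrays. The fasted and ketogenic arrays did not overlap (-0.32, SE 0.225, adjusted p = 0.658), and the fed arrays ran from below the first to above the second. Cox7a2 differed by -0.11, -0.07 and -0.04, with -0.05 in fasted against fed mice without those 2 arrays.

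Complex V, the ATP synthase, had medians of -0.02, 0.00 and -0.02, and the median SD of its members between arrays of a diet was 0.11. Without fed array 2 and fasted array 2 the medians were -0.045, 0.020 and -0.029. Atp5b, the catalytic beta subunit, read 8.23, 8.42 and 8.30 on the fasted arrays, 8.23, 8.35, 8.31 and 8.35 on the ketogenic arrays and 8.22, 8.36, 8.29 and 8.36 on the fed arrays. Its difference was 0.01 in fasted against fed mice (95% interval -0.15 to 0.17) and 0.01 in ketogenic against fed mice (-0.14 to 0.16). Atp5a1, the alpha subunit, differed by 0.09, -0.03 and 0.13, with fasted array 2 the highest at 8.56, and the last of these was 0.05 without fasted array 2 and fed array 2.

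Atp5g1, Atp5g2 and Atp5g3 encode the same mature c subunit of the proton-driven ring from separate genes. Atp5g1 read 11.30, 11.40 and 11.12 on the fasted arrays, 11.84, 11.57, 11.39 and 11.54 on the ketogenic arrays and 11.28, 10.59, 11.44 and 11.22 on the fed arrays. Ketogenic arrays lay above 3 of the 4 fed arrays (difference 0.45, SE 0.169, 95% interval 0.08 to 0.82, adjusted p = 0.264), and fed array 2 was the lowest of all. The difference was 0.27 without fed array 2 and fasted array 2, and a second probe set of Atp5g1 gave 0.29 on all arrays. Atp5g2, whose promoter window with the NRF1 letters is shown above, read 10.33, 10.30 and 10.18 on the fasted arrays, 10.55, 10.52, 10.54 and 10.50 on the ketogenic arrays and 10.40, 9.86, 10.44 and 10.49 on the fed arrays.

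The 4 ketogenic values of Atp5g2 lay within 0.05 of each other and above all other arrays, by 0.23 over the fed arrays (SE 0.124, adjusted p = 0.441), or 0.08 without fed array 2 and fasted array 2. Fasted against ketogenic arrays differed by -0.26 (adjusted p = 0.528). Atp5g3 read 8.04, 7.80 and 7.95 on the fasted arrays, 7.98, 8.0, 7.96 and 7.83 on the ketogenic arrays and 7.92, 7.83, 7.96 and 8.06 on the fed arrays, with differences of -0.01, 0.00 and -0.01. The 3 genes of the ring thus did not read alike, and the difference between them was not tested.

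Atp5md, a small subunit of the membrane part known for its role in ATP synthase dimers, read 8.14, 8.01 and 8.21 on the fasted arrays, 8.30, 8.59, 8.44 and 8.55 on the ketogenic arrays and 8.05, 8.14, 8.33 and 8.44 on the fed arrays. The fasted arrays were below all ketogenic arrays and within or just under the fed range. The difference was -0.35 in fasted against ketogenic mice (SE 0.111, 95% interval -0.59 to -0.11, adjusted p = 0.285) and 0.23 in ketogenic against fed mice (adjusted p = 0.350). Its other probe sets gave -0.14 and -0.21, and 0.01 and 0.06, in the same comparisons. Atp5d, the delta subunit of the head, differed by -0.11, 0.05 and -0.16, and Atp5mpl, another small membrane subunit, by -0.21, -0.18 and -0.03, the first of which was -0.09 without fed array 2 and fasted array 2. Atp5l was the member with the highest value in fasted against fed mice, 0.52 (SE 0.278, adjusted p = 0.735), at a level in the range of silent genes on most arrays. It read 4.69, 4.54 and 3.45 on the fasted arrays, and its other probe sets gave 0.05 and 0.48 in that comparison.

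Set side by side, 10 listed subunits of the 5 complexes (Ndufv1, Ndufs1, Sdha, Sdhb, Uqcrc1, Uqcrfs1, Cox4i1, Cox5a, Atp5a1 and Atp5b) had medians of 0.01, -0.01 and 0.08, against -0.02, 0.01 and -0.04 over all genes. Their mean deviation was -0.058, 0.077 and 0.027 on the fasted arrays and -0.012, -0.014, -0.032 and 0.009 on the ketogenic arrays. On the fed arrays it was -0.035, 0.036, 0.002 and 0.000, so that fasted array 2 was the highest of all arrays and fasted array 1 the lowest. Cox4i1 and Cox5a stand for complex IV although its catalytic core is encoded in mitochondrial DNA. The list leaves out Uqcrc2 and the core subunits of complex I other than Ndufv1 and Ndufs1. The 95% interval lay within 1.5-fold for 10 of the 10 in fasted against fed mice and in ketogenic against fed mice, and for 9 in fasted against ketogenic mice, where Cox5a ran from -0.60 to 0.08.

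**Figure D4:**
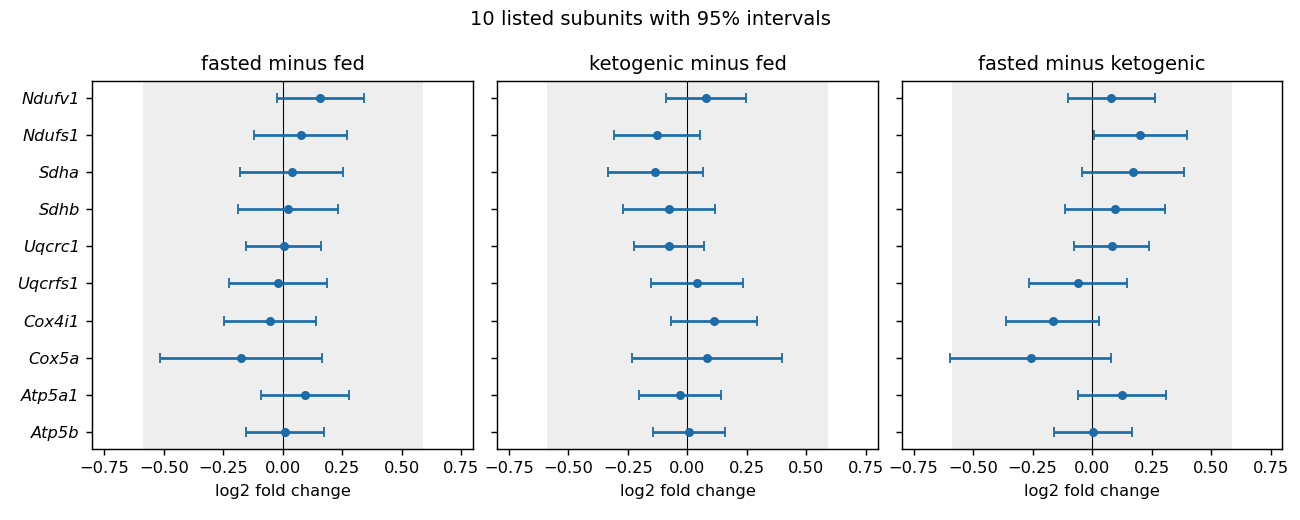
Log2 fold change (points) with its 95% interval (bars) for the 10 listed subunits in the 3 comparisons, with the range of 1.5-fold either way in grey. Apart from Cox5a in fasted against ketogenic mice, whose interval reaches -0.60, the intervals stay inside the grey band.

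Genes that build and control the complexes were read in the same fit. Of 46 listed assembly factors, 42 were measured, the Ndufaf genes included, with medians of -0.08, 0.09 and -0.16. None passed in any comparison. Above 0 in fasted against ketogenic mice were 9.5% of them, against 39.3% of all genes (23.8% against 43.7% without fed array 2 and fasted array 2). Below 0 were 38 of the 42 (32 of 42, with a median of -0.09, without those arrays). Among them were Tmem70, which helps to build ATP synthase (-0.30, SE 0.086, adjusted p = 0.232), and Cox20, a chaperone of complex IV (-0.41, SE 0.155, adjusted p = 0.369, or -0.21 without those arrays). The 14 regulators of mitochondrial biogenesis had medians of 0.01, 0.04 and -0.05. Ppargc1a, the coactivator at the head of this program, differed by 0.07 in fasted against fed mice (SE 0.076, adjusted p = 0.872). It differed by -0.05 in ketogenic against fed mice (SE 0.070, adjusted p = 0.790). In the same order Nrf1 differed by 0.01 and 0.08 and Tfam, which packages mitochondrial DNA, by 0.05 and 0.08. Gabpa differed by -0.06 and -0.20 (adjusted p = 0.909 and 0.340, limma). In ketogenic against fed mice the 14 ran from this Gabpa value to 0.32 for Ppargc1b (adjusted p = 0.540, limma). In fasted against ketogenic mice they ran from -0.24 for Ppargc1b to 0.14 for Gabpa. Tfb1m, at -0.23 there, had the lowest adjusted p of the 14, 0.316 (limma), and none of them passed.

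Among the electron carriers, Cyc1 and Cycs, the cytochromes of and after complex III, differed by -0.02 and -0.21 in fasted against fed mice and by -0.01 and -0.07 in ketogenic against fed mice. Without fed array 2 and fasted array 2 the Cycs value in fasted against fed mice was 0.02. The 8 genes of coenzyme Q synthesis had medians of -0.04, -0.02 and -0.03. The 75 mitochondrial ribosomal protein genes, which serve translation of the subunits encoded in mitochondrial DNA, had medians of -0.06, 0.09 and -0.15. None of them passed, and 72 of the 75 were below 0 in fasted against ketogenic mice (4.0% above 0, against 39.3% of all genes). Without fed array 2 and fasted array 2 it was 61 of 75, with a median of -0.09 (18.7% above 0, against 43.7% of all genes). For comparison, 64 cytosolic ribosomal protein genes had medians of -0.08, 0.05 and -0.13 on all arrays and of -0.01, -0.01 and 0.00 without those arrays.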

How the data were processed

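Pulled-down RNA was amplified with the NuGEN Pico WTA v2 kit and hybridized to Affymetrix mouse exon arrays, 1 per sample. The authors normalized the arrays by RMA in Partek (the submitters' processing notes also name build mm9) and deposited log2 values for 115830 probe sets. The base of the logarithm is not given in the sources used here and was read as 2 from the range of the values (0.86 to 13.57). Depth does not apply to arrays, and the number of arrays limits the precision. Of the probe sets, 25539 were paired with 1 gene symbol and 2300 with several, which were not used. For a gene with several probe sets the brightest on average was used, which applied to 17 members. Their sets differed in sign for 6 members in fasted against fed mice, 7 in ketogenic against fed mice and 5 in fasted against ketogenic mice.

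Diets were compared in limma 3.58.1 (R 4.3.3; lmFit and eBayes) with 1 mean per diet over all 11 arrays, and p-values were adjusted by Benjamini-Hochberg over 20259 genes at a threshold of 0.05. The fit was tested on simulated data. Levels of different genes are not compared, since probe sets differ in brightness. Named members were the 2 with the lowest p in each complex and comparison, a list of subunits (Ndufv1, Ndufs1, Sdha, Sdhb, Uqcrfs1, Uqcrc1, Cox4i1, Cox5a, Atp5a1 and Atp5b), and the isoform sets. Ndufv3, Ndufaf5, Tmem70, Cox20, Gabpa, Ppargc1b and Tfb1m fall outside this rule and were chosen after their values were seen. Members and lists were chosen with earlier results of these data known. Promoter windows are from RefSeq (GRCm38.p6). Alternatives were array weights, median-centred arrays, the median over probe sets, a filter on low values, another prior, only the 2 diets compared, a replicate block, the methods' t-test and leaving out arrays.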

Additional observations from a re-analysis of the deposited data

Results flagged for a closer look

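Of 88 groups of 4 arrays tested for a single array far from the other 3, 6 were set apart by Dixon's test at its 95% critical value, which chance passes in about 1 of 20 groups. Fed array 2 was the lowest for Atp5g2 (9.86, against 10.40 to 10.49 on the other fed arrays), for Sdhc (6.30, against 6.88 to 6.99) and for Uqcrh (7.11, against 7.94 to 8.01). Ketogenic array 4 was the lowest for Atp5d (7.08, against 7.25 to 7.27 on the other ketogenic arrays). Ketogenic array 2 was the highest for Ndufv1 (7.41, against 7.22 to 7.24) and for the mean deviation of complex I (0.08, against 0.02 to 0.03). Groups of 3 fasted arrays are too small for this test.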

How the results depend on the processing

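No member passed the threshold in any of the 49 alternative fits of the 3 comparisons, those without 1 array included, and the lowest adjusted p of a named gene was 0.0997 (limma, Cox8c in ketogenic against fed mice with array weights). In fasted against fed mice the median of complex II was -0.041 without fed array 2 and fasted array 2 (0.029 on all arrays) and ran from -0.041 to 0.061 when single arrays were left out. In fasted against ketogenic mice the median of all members was -0.033 without those arrays and ran from -0.111 to -0.033 when single arrays were left out. The median of complex III in that comparison was -0.006 without those arrays and -0.16 when a gene took the median over its probe sets. Of 114 values of 38 named genes, 44 changed sign under at least 1 alternative, and 7 of 1742 alternative values moved by the spread between arrays or more. Arrays with the same sample number in different diets had correlations of -0.12 to 0.18 over 10 pairs, 2 of them over 0.1. These were fasted array 2 with fed array 2 (0.18) and fasted array 3 with fed array 3 (0.13). An array correlated best with its own number in 7 of 20 comparisons with another diet. So few arrays per diet cannot decide whether the numbers pair the arrays. With the replicate number as a block, 0 members passed in each comparison and the medians were -0.03, 0.04 and -0.07 in fasted against fed, ketogenic against fed and fasted against ketogenic mice. Over all genes the block gave 0, 1 and 6 calls in that order, against 0, 179 and 57 without it. With 3 or 4 arrays per diet, a difference of a size near the median standard error of the members, 0.11 on the log2 scale in fasted against fed mice, could not be called. Larger differences were not called in that comparison either. Values of all 20259 genes ran from -2.255 to 1.986, with 0 called and a lowest adjusted p of 0.15 (limma).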
